A study of Homo sapiens with 4 samples.

Results

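The RAB genes encode a family of small GTPases, and members were every gene of the deposited table whose symbol is RAB followed by a number and at most 1 letter. The rule found 44 of the 14431 genes in the table, and RAB-like genes, regulators and effectors of RAB proteins were not members. The 44 genes fell into 9 numbers with at least 2 listed paralogs and 24 single genes.

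RAB proteins mark the membranes of the secretory and endocytic pathways. Each switches between a GTP-bound form that recruits effectors such as tethers, motors and adaptors and a GDP-bound form that is taken off the membrane by a GDP dissociation inhibitor. Exchange factors load GTP, TBC-domain proteins speed up its hydrolysis, and a Rab escort protein together with a geranylgeranyl transferase adds the lipid tails that hold a RAB on its membrane. Paralogs of the same number have closely similar proteins and often mark the same compartment. In cancer cells RAB traffic is known for its part in receptor recycling, secretion and migration.

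The data were 4 RNA-seq libraries from HGC27 cells, an established line from a human gastric carcinoma. The 2 siAARS1 libraries were from cells given a small interfering RNA against AARS1, the alanyl-tRNA synthetase that the study describes as a lactyltransferase. The 2 control libraries carried the wild-type label, and NC in their descriptions. All 4 cultures were in DMEM without glucose and received 25 mM lactate, for 24 h by the labels, while the study's text gives another duration. Nothing in the labels says that replicates were separate cultures, so p-values measure the spread between these libraries, which may be technical. Every value is from 1 line and 1 condition, and the number of different siRNAs was not given in the labels.

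Listed genes took 30653210 to 33522573 reads per library, and 1 read was worth 0.0293 to 0.0324 CPM, the unit of the table (reads scaled to library size). The targeted gene, listed as AARS (ENSG00000090861), had 428 and 417 CPM in controls 1 and 2, against 292 and 298 CPM in siAARS1 replicates 1 and 2, and the siAARS1 mean was 0.697 of the control mean (log2 fold change -0.52, SE 0.0357, limma adjusted p = 2.52e-11). Under the 2 corrections for base composition and length described below, its log2 fold change was -0.17 and -0.27 (limma adjusted p = 9.72e-05 and 7.20e-08). Of 7 epithelial markers only KRT8, CDH1 and CLDN4 were listed, with a summed level of 30.6 to 30.8 CPM in the controls against 8.002 to 9.36 CPM after siAARS1. All 4 fibroblast markers were listed (COL1A1, COL3A1, DCN and PDGFRB), with a sum of 6228 to 6420.0 CPM in the controls against 4429 to 4536 CPM after siAARS1. Most of that sum was COL1A1 and COL3A1, with control means of 2359 and 3704 CPM. These 2 and PDGFRB were called lower. DCN was called higher, with 239 and 250 CPM in the controls against 258 and 270 CPM after siAARS1. PTPRC, CD3E and the 3 endothelial markers were not among the listed genes, and CD68 had at most 1.10 CPM. Epithelial markers of this carcinoma line were thus weak beside fibroblast markers, the sums of both differed between the groups, and their part in the RAB results was not tested.

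The coding sequences below show how paralogs with nearly the same protein differ at silent positions, since base composition returns beside the results. Each is the 39-base stretch that codes for the conserved G3 (switch II) nucleotide-binding motif and its flanks, 13 codons read from the coding sequence of 1 GENCODE release 29 transcript per gene on GRCh38, 5′ to 3′, with G or C at the third base of a codon in capitals.
RAB1A: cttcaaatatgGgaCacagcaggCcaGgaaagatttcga
RAB1B: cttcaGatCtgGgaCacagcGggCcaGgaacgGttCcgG
RAB5A: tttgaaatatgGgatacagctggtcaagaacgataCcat
RAB5B: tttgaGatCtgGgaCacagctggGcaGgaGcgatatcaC
RAB5C: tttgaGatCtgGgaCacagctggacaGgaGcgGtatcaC
RAB8A: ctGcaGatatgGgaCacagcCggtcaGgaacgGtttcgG
RAB8B: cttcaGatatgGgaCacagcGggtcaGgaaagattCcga
RAB11A: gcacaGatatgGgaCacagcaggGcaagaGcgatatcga
RAB11B: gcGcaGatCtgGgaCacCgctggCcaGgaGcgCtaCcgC
RAB1A, at chr2:65070696-65130331, minus strand, had 4 of these 13 codons ending in G or C, and RAB1B, at chr11:66268533-66277492, plus strand, had 10. For RAB5A (chr3:19947079-19985175, plus strand), RAB5B (chr12:55973913-55996683, plus strand) and RAB5C (chr17:42124976-42155044, minus strand) the counts were 2, 8 and 8. RAB8A (chr19:16111629-16134234, plus strand) had 8 and RAB8B (chr15:63189469-63267782, plus strand) had 6. RAB11A (chr15:65726054-65891991, plus strand) and RAB11B (chr19:8389981-8404434, plus strand) stood furthest apart of the paralogs shown, with 5 and 12. Over the whole proteins, 93.5% of aligned residues were identical between RAB1A and RAB1B, and at those residues the third codon base was the same in 41.5%. The corresponding values were 92.1% and 33.2% for RAB11A and RAB11B, and 87.4% and 35.6% for RAB5A and RAB5C.

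Transcripts of RAB genes spanned from 0.392 CPM for RAB27B to 251 CPM for RAB1B as control means. Levels per kilobase of transcript allow genes to be compared, as far as the 1 transcript chosen per gene is the one expressed. By this measure RAB1B (ER to Golgi) stood highest in control at 125 CPM per kb. RAB13 (tight junctions and surface delivery) followed at 117, RAB5C (early endosomes) at 100.1, RAB11B (recycling endosomes) at 82.7 and RAB7A (late endosomes) at 78.8 CPM per kb. At the low end were RAB27B, with 0.0538, and the neuronal RAB39B, with 0.296 CPM per kb. RAB27B (secretory granules and exosomes) had 16 and 10 reads in control and 20 and 43 reads in siAARS1. It failed the filter of a mean of 1 CPM in 1 group, so 43 of the 44 members were tested. Summed over the 44 genes, the level was 2552 ± 15.98 CPM in control and 2346 ± 23.05 CPM in siAARS1 (SD, n = 2 each), and both siAARS1 libraries were below both controls. The plot of RAB levels gives each gene in each library.

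**Figure D1:**
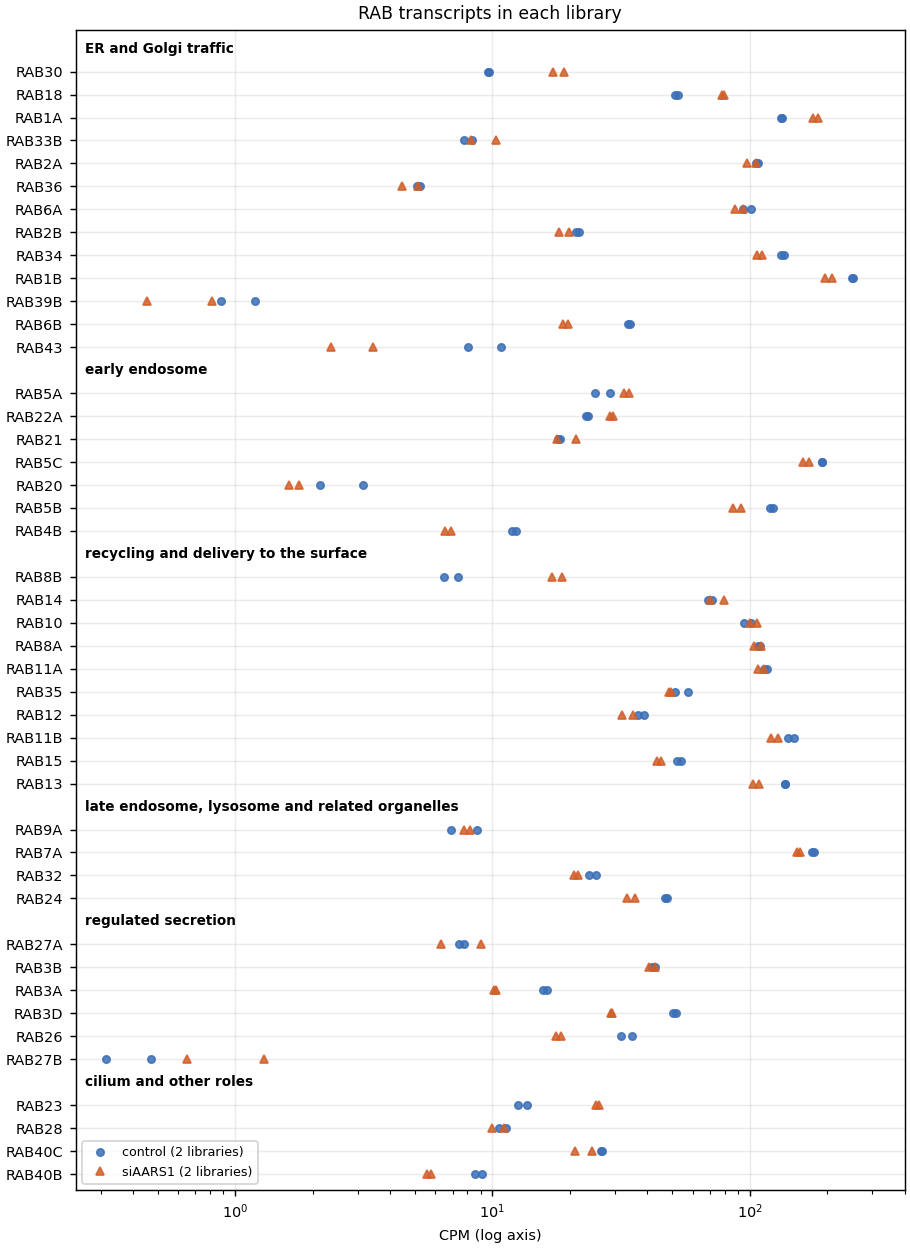
CPM of the 44 RAB genes on a log axis, grouped by the compartment each is known to serve, with circles for the 2 control and triangles for the 2 siAARS1 libraries. RAB8B lies at 6.51 and 7.34 CPM in control and at 17.0 and 18.6 CPM in siAARS1, while RAB43 lies at 10.8 and 8.01 CPM against 2.36 and 3.43 CPM.

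The comparison of siAARS1 with control asked which RAB transcripts changed when AARS1 was lowered under lactate. Of the 43 tested, 7 rose, 21 fell and 15 did not pass the test at an adjusted p of 0.05 (limma on log2(CPM + 1), Benjamini-Hochberg over 14199 genes). This was a response in which most genes changed, since 70.7% of all genes tested were called, 32.6% higher and 38.0% lower. The RAB share called, 65.1%, was near that background. In bulk RNA fewer cells of a type and less RNA per cell cannot be told apart. These calls are on the deposited CPM, and a correction for transcript GC content and length turned the sign of 21 of the 43 fold changes, called or not, and of 8 of the 12 paralog differences. The median log2 fold change over the 43 RAB genes was -0.17, beside -0.05 over all genes tested, and it was -0.11 without siAARS1 replicate 1. With the median log2(CPM + 1) of every library made equal, the median of all genes was -0.27, that of the RAB genes -0.39, and 5 RAB genes were higher and 32 lower. The 2 libraries of 1 group did not overlap those of the other for 30 of the 43 genes (69.8%), against 85.1% of all genes tested.

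**Figure D2:**
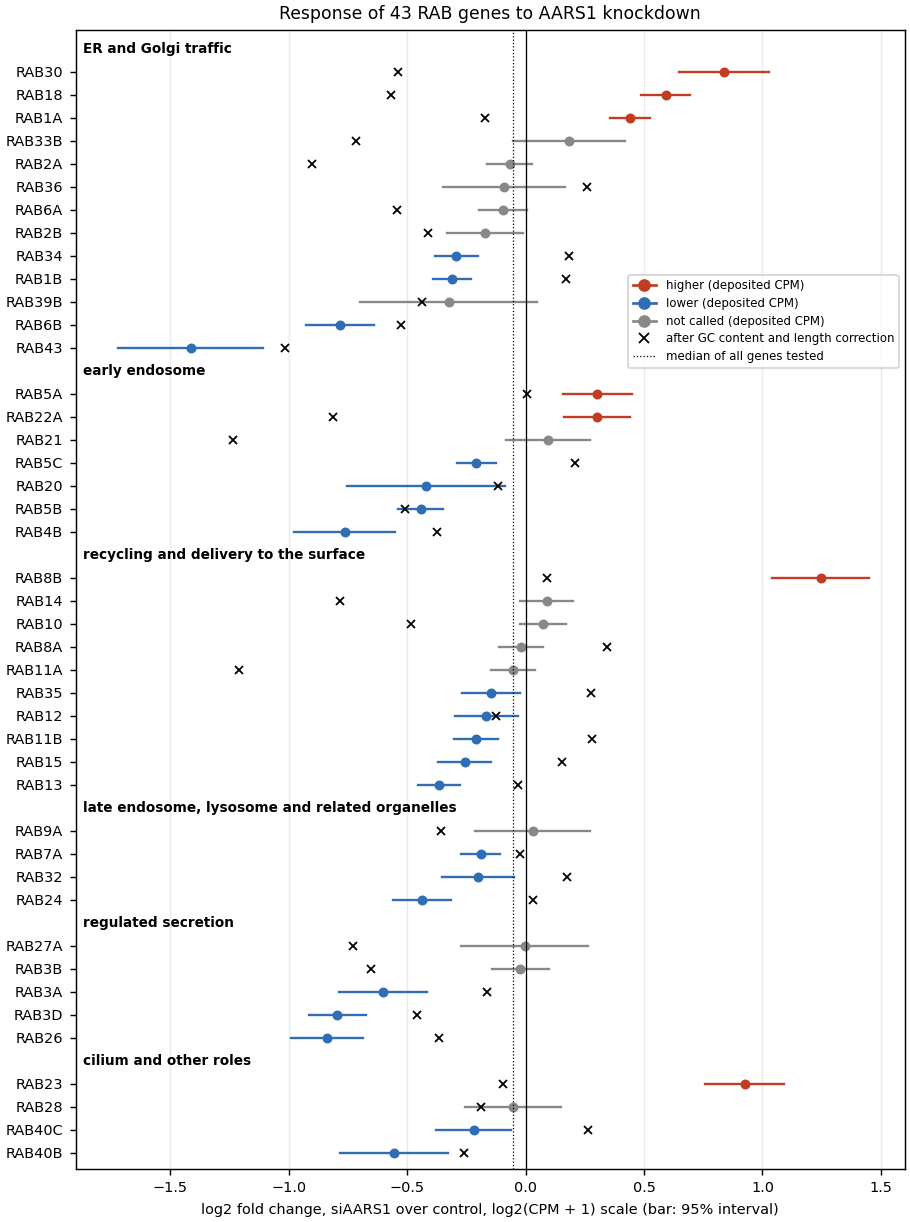
Log2 fold change of siAARS1 over control for the 43 RAB genes tested, with 95% intervals, coloured by the call on the deposited CPM; crosses give the value after a correction for transcript GC content and length, and the dotted line is the median of all genes. The called values run from -1.41 for RAB43 to 1.24 for RAB8B, and 21 crosses lie on the other side of 0 from their point.

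Among 13 RABs of the ER and Golgi, 3 rose, 4 fell and 6 did not pass, with a median log2 fold change of -0.10. RAB30, a Golgi RAB, had 9.59 and 9.71 CPM in controls 1 and 2, against 17.1 and 18.98 CPM in siAARS1 replicates 1 and 2 (log2 fold change 0.84, SE 0.0907, limma adjusted p = 4.28e-08). RAB18, which serves the ER and lipid droplets, had 51.4 and 52.5 CPM in the controls against 77.9 and 79.6 CPM after siAARS1 (log2 fold change 0.59, SE 0.0489, limma adjusted p = 5.75e-10). Both siAARS1 libraries were above both controls for each of these genes. RAB43, a Golgi RAB, had 10.8 and 8.01 CPM in the controls against 2.36 and 3.43 CPM after siAARS1, with both siAARS1 libraries below both controls (log2 fold change -1.41, SE 0.147, limma adjusted p = 2.13e-08). Its locus, chr3:129087569-129122801, minus strand, is also covered by the read-through gene ISY1-RAB43, which had 14.1 and 15.6 CPM in the controls against 8.35 and 8.48 CPM after siAARS1 and fell too (log2 fold change -0.75, limma adjusted p = 4.93e-07), and how reads were split between them was not given. RAB34, another Golgi RAB, fell with a log2 fold change of -0.29. RAB33B and RAB39B, which act in Golgi traffic and autophagy, had 0.18 and -0.33, RAB36 had -0.09, and none of the 3 passed the test.

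RAB1A and RAB1B, both of which direct ER to Golgi transport, moved in opposite directions. RAB1A had 134 and 132 CPM in controls 1 and 2, against 176 and 185 CPM in siAARS1 replicates 1 and 2. RAB1B had 252 and 250.3 CPM in the controls against 208 and 197 CPM after siAARS1. RAB1A was higher and RAB1B lower in both siAARS1 libraries, with no overlap (log2 fold change 0.44, SE 0.0405, limma adjusted p = 3.37e-09 for RAB1A, and log2 fold change -0.31, SE 0.0389, limma adjusted p = 3.83e-07 for RAB1B). Their sum was 386 and 382 CPM in the controls against 385 and 381 CPM after siAARS1, so that the groups overlapped. Per kilobase, RAB1A made up 30.3% and 30.2% in the control libraries and 41.02% and 43.5% in the siAARS1 libraries.

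Of 7 RABs of the early endosome, 2 rose, 4 fell and 1 did not pass, with a median log2 fold change of -0.21. RAB5A had 25.05 and 28.7 CPM in controls 1 and 2, against 32.6 and 33.96 CPM in siAARS1 replicates 1 and 2 (log2 fold change 0.30, SE 0.0705, limma adjusted p = 0.000681). RAB5B had 120.3 and 124 CPM in the controls against 92.5 and 86.4 CPM after siAARS1 (log2 fold change -0.44, SE 0.0455, limma adjusted p = 1.82e-08), and RAB5C had 191 and 192 CPM in the controls against 169.5 and 162 CPM after siAARS1 (log2 fold change -0.21, SE 0.0396, limma adjusted p = 8.14e-05). The 3 are paralogs that control homotypic fusion of early endosomes, and RAB5A rose while both others fell, without overlap of the groups. Their summed level was 337 and 344 CPM in the controls against 295 and 282 CPM after siAARS1, lower in both siAARS1 libraries, and RAB5A made up 7.45% and 8.39% in the control libraries and 10.8% and 11.7% in the siAARS1 libraries of the family level per kilobase. RAB22A, which acts in endosomal recycling, rose with a log2 fold change of 0.30, to 1.24 of the control mean. The rises of RAB5A and RAB22A were 0.083 and 0.082 under equal library medians and were then not called (limma adjusted p = 0.265 and 0.267). RAB4B, a RAB of rapid recycling, had 12.3 and 11.9 CPM in the controls against 6.54 and 6.92 CPM after siAARS1, both siAARS1 libraries lying below the controls (log2 fold change -0.76, SE 0.102, limma adjusted p = 8.87e-07). RAB20 (endosomes and phagosomes) fell with -0.42, a call lost without control replicate 2 or either siAARS1 library. RAB21 (integrin endocytosis) had 0.09 and did not pass.

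Of 10 RABs of recycling and delivery to the surface, 1 rose, 5 fell and 4 did not pass, with a median log2 fold change of -0.10. RAB8B had 6.51 and 7.34 CPM in controls 1 and 2, against 17.00 and 18.6 CPM in siAARS1 replicates 1 and 2, the largest rise among the RAB genes tested (log2 fold change 1.24, SE 0.0984, limma adjusted p = 2.66e-10). Its paralog RAB8A, which with RAB8B delivers vesicles to the plasma membrane and cilium, had 108 and 109.9 CPM in the controls against 111 and 104 CPM after siAARS1, with the groups overlapping (log2 fold change -0.02, SE 0.0447, limma adjusted p = 0.701). RAB8A was the more abundant, and RAB8B made up 3.35% and 3.68% in the control libraries and 8.08% and 9.27% in the siAARS1 libraries of the pair's level per kilobase, and the sum of both was 114 and 117 CPM in the controls against 128 and 122 CPM after siAARS1. RAB13, RAB15, RAB11B, RAB12 and RAB35 fell, with log2 fold changes of -0.37, -0.26, -0.21, -0.17 and -0.15. The last 2 are the least secure, since the RAB12 call was lost without control replicate 2 or siAARS1 replicate 1 and the RAB35 call without control replicate 1 or either siAARS1 library. RAB10 (GLUT4 and basolateral delivery), RAB14 and RAB11A had 0.07, 0.09 and -0.05 and did not pass. RAB10 and RAB14 became negative under equal library medians (-0.15 and -0.13), as did RAB21, RAB9A and RAB33B (-0.13, -0.19 and -0.038), the last 3 without a call.

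Of 4 RABs of late endosomes, lysosomes and related organelles, none rose, 3 fell and 1 did not pass, with a median log2 fold change of -0.20. RAB7A, the main RAB of late endosomes and lysosomes, fell from 177 ± 1.95 to 155 ± 3.05 CPM (SD, n = 2 each), a log2 fold change of -0.19. RAB24, linked to autophagy, fell from 47.3 ± 0.814 to 34.7 ± 1.76 CPM, with -0.44. RAB32, which serves melanosomes and mitochondria-associated membranes, fell with -0.20, a call lost without control replicate 1 or siAARS1 replicate 1. RAB9A, which directs endosome to Golgi return, had 0.03 and did not pass.

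Among 5 tested RABs of regulated secretion none rose, 3 fell and 2 did not pass, with a median log2 fold change of -0.60 on the deposited CPM. RAB27B, also of this group, was not tested. The median was -0.46 and -0.12 under the 2 corrections described below, with 4 and 2 genes called lower and 0 and 1 called higher. RAB26 had 31.6 and 34.9 CPM in controls 1 and 2, against 18.5 and 17.7 CPM in siAARS1 replicates 1 and 2 (log2 fold change -0.84, SE 0.0727, limma adjusted p = 1.22e-09). RAB3D, found on exocrine granules, had 51.6 and 50.2 CPM in the controls against 29.05 and 28.8 CPM after siAARS1 (log2 fold change -0.80, SE 0.0580, limma adjusted p = 6.78e-11). RAB3A, of synaptic vesicles, had 15.8 and 16.3 CPM in the controls against 10.3 and 10.1 CPM after siAARS1 (log2 fold change -0.60, SE 0.0895, limma adjusted p = 3.91e-06). For all 3, both siAARS1 libraries were below both controls. Under the same corrections RAB3A had -0.16 and -0.12 and was not called (limma adjusted p = 0.0876 and 0.200). RAB26 and RAB3D stayed called lower under both. RAB3B had 41.7 and 42.9 CPM in the controls against 40.5 and 42.8 CPM after siAARS1, with overlap (log2 fold change -0.02, SE 0.0574, limma adjusted p = 0.739). RAB27A, which tethers granules and exosome-bearing endosomes, had a log2 fold change of -0.0047, with siAARS1 libraries on both sides of the controls.

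Of the 4 remaining RABs 1 rose, 2 fell and 1 did not pass. RAB23, a negative regulator of Hedgehog signalling, had 12.5 and 13.6 CPM in the controls against 25.3 and 26.02 CPM after siAARS1, with both siAARS1 libraries above both controls (log2 fold change 0.92, SE 0.0795, limma adjusted p = 1.08e-09). RAB40B and RAB40C, which carry a SOCS box that recruits a ubiquitin ligase, fell with -0.56 and -0.22, and the RAB40C call was lost without siAARS1 replicate 1. RAB28 had -0.05 and did not pass.

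Whether paralogs of 1 number responded differently was tested within each library, as the difference of their log2(CPM + 1) values, in which the scaling of a whole library largely cancels. Of 12 RAB pairs with both genes tested, 8 differed in response at an adjusted p of 0.05. The background was again high, as 62.6% of the 1111 same-stem gene pairs in the table differed, and the 3 RAB3 and 3 RAB5 pairs share genes. The difference in log2 fold change was -1.27 (SE 0.0973, 95% interval -1.49 to -1.04, limma adjusted p = 6.40e-06) for RAB8A minus RAB8B, the largest of the 12. For RAB1A minus RAB1B it was 0.75 (SE 0.0614, 95% interval 0.61 to 0.89, limma adjusted p = 9.32e-06). The log2 ratio of RAB1A to RAB1B was -0.91 and -0.92 in the control libraries and -0.24 and -0.09 in the siAARS1 libraries, so the gap narrowed, while per kilobase RAB1B stayed the higher in every library.

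In the RAB5 family RAB5A minus RAB5B was 0.75 (SE 0.0833, 95% interval 0.56 to 0.94, limma adjusted p = 6.35e-05). RAB5A minus RAB5C was 0.51 (SE 0.0810, 95% interval 0.33 to 0.70, limma adjusted p = 0.000570), and RAB5B minus RAB5C was -0.23 (SE 0.0531, 95% interval -0.36 to -0.11, limma adjusted p = 0.00450). Under the corrections for base composition and length RAB5A minus RAB5C turned to -0.20 and -0.18 (limma adjusted p = 0.0159 and 0.0310). RAB5A minus RAB5B was then 0.51 and 0.16, the latter not called (limma adjusted p = 0.0554). In the RAB3 family RAB3B minus RAB3D was 0.77 (SE 0.0786, 95% interval 0.59 to 0.95, limma adjusted p = 3.58e-05) and RAB3A minus RAB3B was -0.58 (SE 0.0951, 95% interval -0.80 to -0.36, limma adjusted p = 0.000702). Under the corrections for base composition and length RAB3B minus RAB3D was -0.19 and 0.67, and RAB3A minus RAB3B was 0.49 and -0.48, all called. RAB3B made up 12.7% and 12.98% in the control libraries and 18.9% and 19.96% in the siAARS1 libraries of the family level per kilobase.

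RAB6A and RAB6B, which act in transport within and from the Golgi, differed by 0.69 (SE 0.0843, 95% interval 0.50 to 0.88, limma adjusted p = 0.000114). RAB6A had 93.8 and 101 CPM in the controls against 87.9 and 94.1 CPM after siAARS1. RAB6B had 34.3 and 33.6 CPM in the controls against 19.7 and 18.9 CPM after siAARS1. The groups overlapped for RAB6A and did not for RAB6B (log2 fold change -0.78, SE 0.0684, limma adjusted p = 1.36e-09). RAB6B made up 18.3% and 16.97% in the control libraries and 12.1% and 10.95% in the siAARS1 libraries of the pair's level per kilobase. Under the corrections for base composition and length RAB6A minus RAB6B was -0.0178, not called, and 0.23, called (limma adjusted p = 0.825 and 0.0183).

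For 4 pairs the difference did not pass, which does not show that the paralogs responded alike. RAB40B minus RAB40C was -0.34 (SE 0.133, 95% interval -0.64 to -0.03, limma adjusted p = 0.0544), and RAB11A minus RAB11B was 0.16 (SE 0.0728, 95% interval -0.01 to 0.32, limma adjusted p = 0.0944). RAB3A minus RAB3D was 0.19 (SE 0.0956, 95% interval -0.03 to 0.41, limma adjusted p = 0.114). RAB2A minus RAB2B, both of ER and Golgi membranes, was 0.10 (SE 0.0692, 95% interval -0.06 to 0.26, limma adjusted p = 0.230). RAB2A had -0.07 and RAB2B -0.17 as log2 fold changes, neither of which passed. Under the 2 corrections described below, RAB11A minus RAB11B was called at -1.49 and -0.66, and RAB2A minus RAB2B at -0.49 and -0.37. RAB40B minus RAB40C was then called at -0.52 and -0.41. RAB3A minus RAB3D was 0.30, which was called, and 0.18, which was not. RAB11A/RAB11B passed without control replicate 1 (0.21) or without siAARS1 replicate 1 (0.24), and RAB40B/RAB40C without siAARS1 replicate 1 (-0.46).

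**Figure D3:**
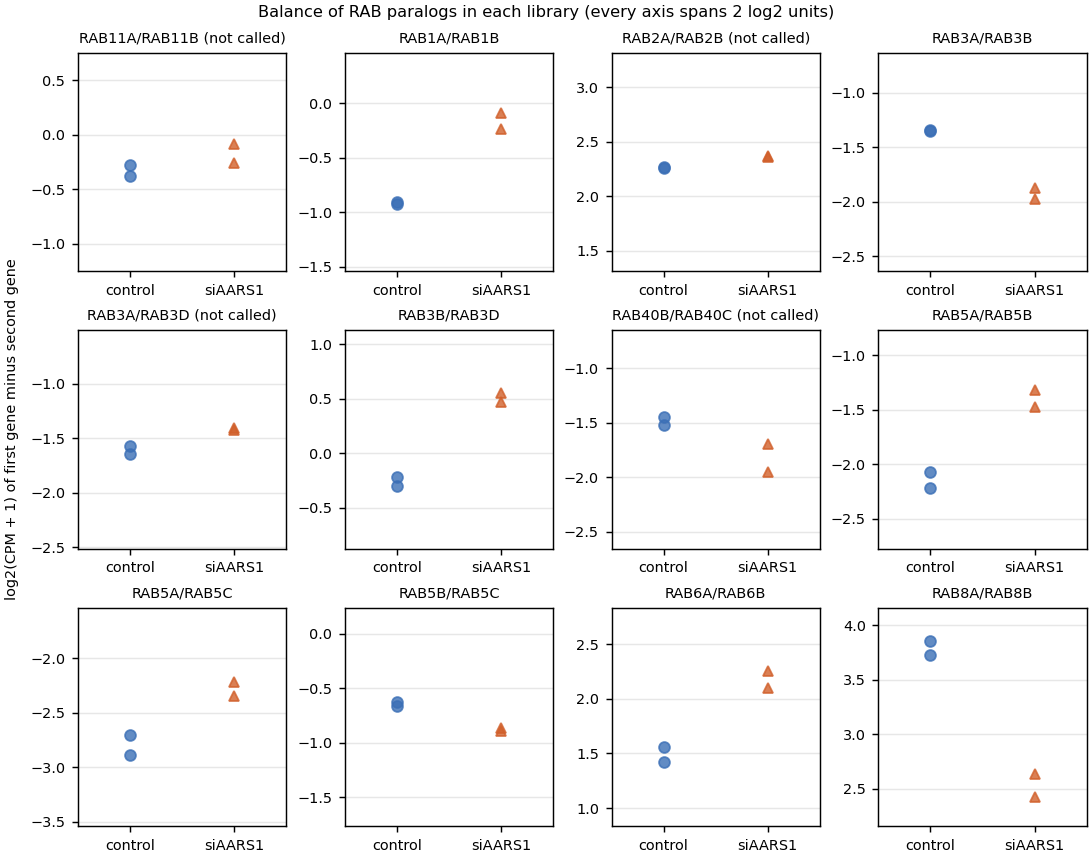
Difference of log2(CPM + 1) between the paralogs of each of the 12 RAB pairs, 1 point per library, with circles for control and triangles for siAARS1 and axes of equal span. RAB8A/RAB8B drops from 3.85 and 3.73 to 2.63 and 2.42, RAB1A/RAB1B rises from -0.91 and -0.92 to -0.24 and -0.09, and the 4 pairs marked as not called have shifts of -0.34 to 0.19.

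Base composition moved with these results. The line of 45% was drawn after the values were seen. Of the 20 RAB genes whose transcript had a GC content below 45%, 7 rose, none fell and 13 did not pass, with a median log2 fold change of 0.08. Of the 23 at or above 45%, none rose, 21 fell and 2 did not pass, with a median of -0.31. All genes tested leaned the same way on each side, but RAB genes had the lower median on both. Below 45%, 35% of RAB genes rose and 0% fell, against 71.2% and 7.84% of all genes, whose median was 0.56. At or above it, 0% of RAB genes rose and 91.3% fell, against 12.9% and 54.1% of all genes, whose median was -0.20. The rank correlation between log2 fold change and GC content was -0.79 across the 43 RAB genes and -0.65 across 13819 genes, where genes of 1 library share its depth and base composition and are not independent replicates. The rising RAB8B, RAB30 and RAB18 had GC contents of 36.2%, 36.9% and 37.02%, and the falling RAB43, RAB26 and RAB3D had 61.8%, 62.7% and 52.7%. Where only 1 paralog rose it had the lower GC content, with 38.3% for RAB1A and 61.1% for RAB1B, 36.2% for RAB8B and 54.1% for RAB8A, and 42.03%, 46.3% and 55.8% for RAB5A, RAB5B and RAB5C. RAB5B had the lower GC content of the 2 falling RAB5 genes and fell more. RAB11A and RAB11B, with 37.2% and 63.5%, differed most in GC content and did not differ detectably in response on the deposited CPM. The part of GC content in the RAB results was examined only by the corrections below, which also take out a trend on length. Its cause was not tested.

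**Figure D4:**
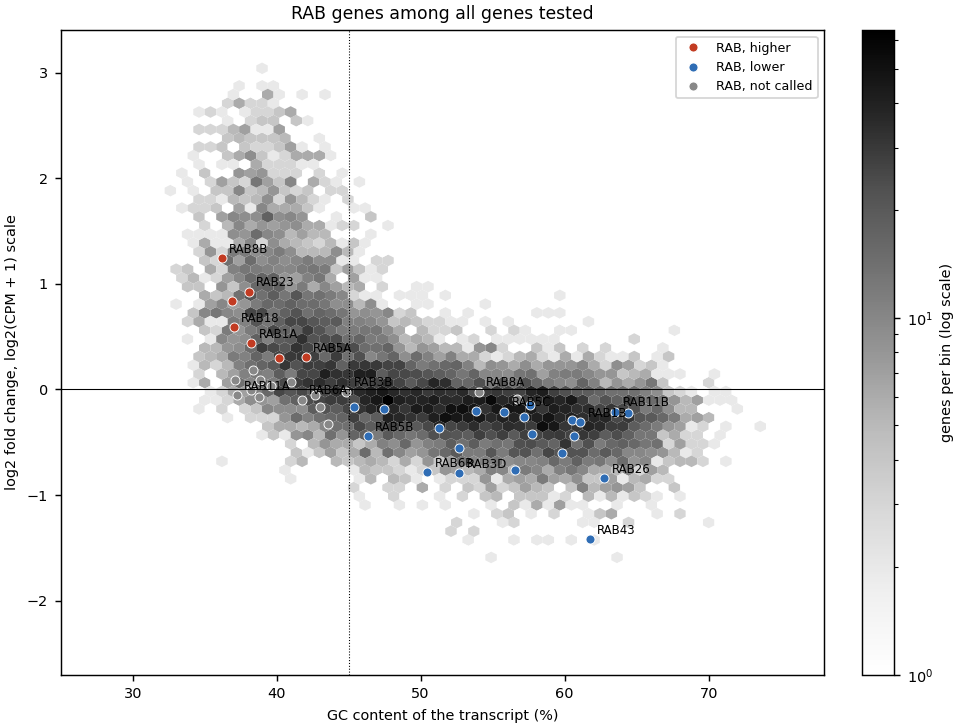
Log2 fold change against GC content of the transcript, with RAB genes as coloured points over the density of all genes tested (grey hexagons, log colour scale) and a dotted line at 45%. The 7 red RAB points lie below 45% and the 21 blue ones at or above it, within the cloud of all genes.

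After a smooth trend on GC content and length of the transcript was taken out of each library, 9 RAB genes were higher and 23 lower, where 68.4% of 13819 genes were called, 6130 higher and 3322 lower. The median log2 fold change was then -0.26 over the RAB genes and 0.11 over all genes. None of the 7 rises kept its call in that direction. RAB8B had 0.09 and RAB23 -0.09, neither called, RAB5A had 0.00406, also not called, and RAB1A, RAB18, RAB30 and RAB22A were called lower with -0.17, -0.57, -0.54 and -0.81. The rank correlation with GC content across the RAB genes was then 0.58, so this correction left a trend of opposite sign in them. With transcript length the rank correlation across the RAB genes was 0.42 before the correction and -0.60 after it. A second correction, chosen after seeing the data, used the GC content at the third base of codons and the coding length. Under it 20 RAB genes were higher and 9 lower, where 69.5% of 12312 genes were called, 5851 higher and 2711 lower, with medians of 0.10 over the RAB genes and 0.12 over all genes. RAB8B, RAB23, RAB30, RAB18, RAB1A and RAB22A were called higher with 1.35, 0.60, 0.98, 0.34, 0.36 and 0.19. RAB5A had -0.0123 and was not called. Some falls turned as well, as RAB1B, RAB5C, RAB11B, RAB34, RAB15, RAB35 and RAB40C were called higher under both corrections. Some genes that were not called on the deposited CPM were called under both. RAB2A (-0.90 and -0.34), RAB11A (-1.21 and -0.33) and RAB14 (-0.78 and -0.17) were lower, and RAB8A (0.35 and 0.41) was higher. RAB10 (-0.48 and 0.20), RAB33B (-0.72 and 0.36) and RAB3B (-0.65 and 0.36) were lower under the first and higher under the second. The paralog differences moved as well, with RAB8A minus RAB8B at 0.25 and -0.94 and RAB1A minus RAB1B at -0.34 and 0.18 under the first and the second correction.

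In 6 RAB genes the fall was called under every alternative run, both corrections and each left-out library included. These were RAB43, RAB26, RAB3D, RAB6B, RAB4B and RAB5B. The mildest value of any alternative was -0.96 for RAB43, -0.34 for RAB26, -0.31 for RAB3D, -0.31 for RAB6B, -0.33 for RAB4B and -0.17 for RAB5B. How many of all genes kept their call in every alternative was not counted. The counts of kept calls given here thus have no background and cannot be called particular to RAB genes. Of the paralog pairs, RAB5B minus RAB5C was called with the same sign in every alternative, at -0.72 and -0.34 under the corrections. Without the corrections, 5 of the 7 rises and 16 of the 21 falls kept their call in every other alternative.

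Several RAB loci share exonic bases with other listed genes, and whether reads were counted by strand was not given. RAB3D overlaps TMEM205 on the same strand, which had 83.99 and 87.3 CPM in the controls against 51.1 and 53.1 CPM after siAARS1, and RAB24 overlaps MXD3, which had 31.03 and 29.5 CPM in the controls against 20.04 and 19.3 CPM after siAARS1. Both neighbours fell as their RAB gene did. RAB40C overlaps WFIKKN1 and RAB27A overlaps PIGBOS1 on the same strand, and RAB1A, RAB23, RAB6B, RAB3A, RAB11B, RAB8A, RAB2B, RAB33B, RAB27A and RAB3D have a listed gene on the other strand. Values of these genes are uncertain to the extent that reads were shared.

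The study's question concerned YAP and TEAD, so RAB promoters were searched for the TEAD core motif GGAATG on both strands. Windows of 300 bases around the gene start (RefSeq, GRCh38.p14) were matched for 35 of the 44 RAB genes, and 4 of them, those of RAB10, RAB11B, RAB27A and RAB28, held it (11.4%). The share was 10.6% of 10408 listed genes and 14.0% of all 27305 windows. Of the 4 genes RAB11B fell and the other 3 did not pass.

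Genes that act on RAB proteins were taken from 4 lists, and of 129 tested 47 rose, 54 fell and 28 did not pass (78.3% called, beside 70.7% of all genes). The balance of directions depended on the scale, with 68 higher and 26 lower under the correction for GC content and length, 56 and 30 under that on the third base of codons, and 40 and 77 under equal library medians. In the prenylation and membrane cycle 4 of 8 rose, 3 fell and 1 did not pass. CHM, which encodes Rab escort protein, had 7.04 and 6.27 CPM in the controls against 30.4 and 35.6 CPM after siAARS1, and its retrogene CHML had 4.72 and 5.42 CPM in the controls against 28.98 and 31.8 CPM after siAARS1. Both siAARS1 libraries were several times above both controls for each (log2 fold change 2.15, SE 0.0931, limma adjusted p = 7.71e-15 and log2 fold change 2.37, SE 0.0950, limma adjusted p = 2.01e-15). After the correction for transcript GC content and length the values were 0.96 and 1.02, still called. RABGGTB and RABGGTA encode the subunits of the transferase that prenylates RABs, and RABGGTB had 123 and 123 CPM in the controls against 208 and 222 CPM after siAARS1 while RABGGTA had 47.3 and 49.6 CPM in the controls against 36.9 and 35.1 CPM after siAARS1. The beta subunit was higher and the alpha subunit lower in both siAARS1 libraries (log2 fold changes 0.80 and -0.42), but the fall of RABGGTA was not present after the correction (0.05, not called). GDI2, which extracts RABs from membranes, had 0.43 and was called higher. RABAC1, a receptor for prenylated RABs on Golgi membranes, had -0.91, and the value was -0.46 after the correction.

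Of 37 exchange factors 14 rose, 14 fell and 9 did not pass, with a median log2 fold change of -0.02. The DENN-domain genes DENND4C, DENND1B and DENND4A had the largest rises, with 2.19, 2.11 and 2.09. DENND4C, whose protein activates RAB10, had 8.77 and 8.67 CPM in the controls against 43.1 and 43.6 CPM after siAARS1, while RAB10 itself did not pass. The largest falls by the same rule were DENND2A, DENND3 and the RAB5 exchange factor RIN1, with -0.97, -0.71 and -0.48. Of 37 TBC-domain genes 11 rose, 17 fell and 9 did not pass, with a median of -0.15. TBC1D15, which acts on RAB7, TBC1D23 and EVI5 rose by 1.90, 1.63 and 1.35, and TBC1D2, EVI5L and TBC1D1 had -0.95, -0.62 and -0.53. After the correction for transcript GC content and length DENND4C, DENND1B and DENND4A had 1.58, 1.81 and 1.22, while EVI5 (0.05) and RIN1 (0.01) were not called. Under the correction on the third base of codons DENND1B had 1.75, DENND4C 0.18 (limma adjusted p = 0.0344) and DENND4A 0.14, which was not called (limma adjusted p = 0.230).

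Of 47 effectors 18 rose, 20 fell and 9 did not pass, with a median of -0.07. USO1 encodes p115, the tether recruited by RAB1, and it had 22.2 and 22.4 CPM in the controls against 115 and 123 CPM after siAARS1 (log2 fold change 2.36, SE 0.0536, limma adjusted p = 1.71e-19). EEA1, the tether recruited by RAB5 to early endosomes, had 2.23 and 3.03 CPM in the controls against 15.96 and 18.4 CPM after siAARS1 (log2 fold change 2.33, SE 0.124, limma adjusted p = 2.65e-13). These tethers were higher in both siAARS1 libraries by factors of 5.34 and 6.54 in the means. They had 1.53 and 0.95 after the correction for transcript GC content and length, and 0.79 and 0.63 after that on the third base of codons. TMF1, a Golgi protein that binds RAB6, had 1.93. MICAL1, OPTN (which binds RAB8) and RILP (which binds RAB7) fell, with -1.07, -0.89 and -0.77.

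**Figure D5:**
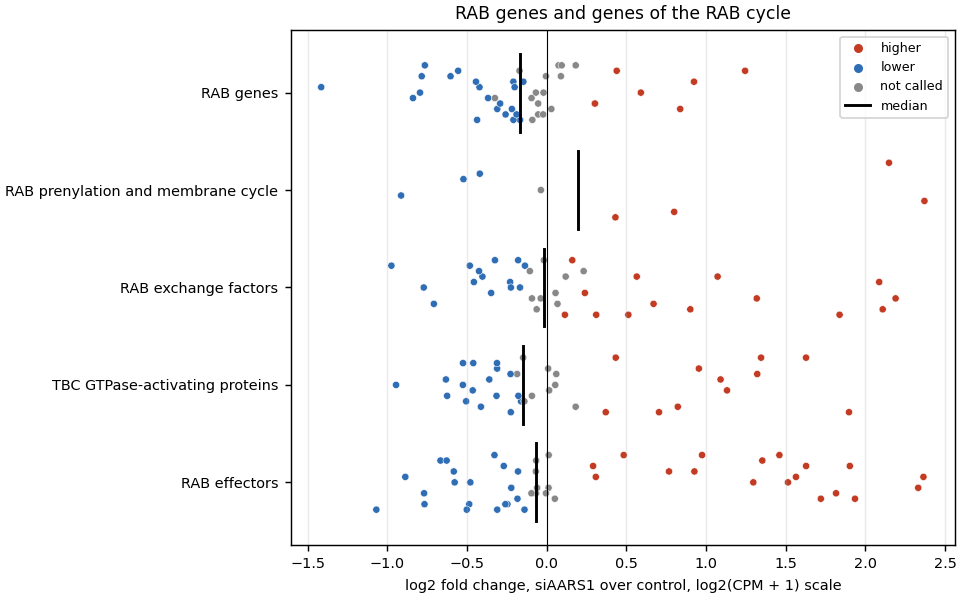
Log2 fold changes of the 43 RAB genes and of the 4 lists of genes that act on RAB proteins, 1 point per gene coloured by call, with a bar at each median. The medians lie at -0.17 for RAB genes, 0.20 for the prenylation and membrane cycle, -0.02 for exchange factors, -0.15 for TBC genes and -0.07 for effectors, and the regulator lists reach further to the right than the RAB genes.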

How the data were processed

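The authors deposited 1 table of CPM values (reads scaled to library size) for 14431 genes, each above 1 CPM in at least 1 library. The submitters' processing notes name RSEM 1.3.3 and hg38. The aligner, strand setting and annotation are not given in the sources used here. All CPM values (100%, within 0.00055 CPM) corresponded to whole numbers of reads, which were recovered. A count of 0 allows up to 3 reads, or 0.0880 to 0.0971 CPM, counting error only.

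Groups came from sample titles. The 14199 genes whose mean reached 1 CPM in either group were tested with limma 3.58.1 (R 4.3.3, eBayes with trend) on log2(CPM + 1), adjusted by Benjamini-Hochberg, threshold 0.05. Fold changes on this scale understate the change of low genes. Same-stem pairs (1111) were tested likewise on their difference. Replicates differed beyond sampling noise (chi-square per gene 3.63 and 3.62), and between replicates r was 0.997 in both groups. An exact permutation test of 2 against 2 could not go below p = 0.333. Transcript properties came from 1 transcript per gene of GENCODE release 29, for 97.2% of the genes. Levels per kilobase, family shares and the corrections depend on that choice. Alternatives were a pseudocount of 0.1, no filter, equal medians, replicate number as a block, each library left out, edgeR 4.0.16 on recovered reads and corrections for base composition and length (mgcv 1.9.3). Scripts were tested on simulated data. All RAB genes were named. Of each regulator list the up to 3 largest called changes per direction, with non-overlapping groups and at least 5 CPM, were named, except 1 gene that is not reported here, and GDI2 was added after its values were seen. Members, roles and lists were chosen with earlier results of these data known.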

Additional observations from a re-analysis of the deposited data

How the results depend on the processing

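The number of RAB genes called was 26 to 37 of 42 to 44 tested and the number of RAB pairs called 8 to 11 over all alternatives, against 28 and 8, and genes called over the table were 8905 to 11479 without the corrections. Leaving out a library gave 26 to 29 RAB genes, 8 to 10 pairs, 93 to 98 regulator genes, 8905 to 9326 genes and a RAB median of -0.17 to -0.11. The RAB median was -0.39 under equal library medians, -0.26 under the GC content and length correction, with and without the replicate block, and 0.10 under the correction for GC content at the third base of codons and coding length. Equal medians turned RAB10 -0.15, RAB14 -0.13, RAB21 -0.13, RAB33B -0.0377 and RAB9A -0.19. The correction for GC content and length, with and without the block, turned the log2 fold changes RAB10 -0.48, RAB11B 0.28, RAB14 -0.78, RAB15 0.16, RAB18 -0.57, RAB1A -0.17, RAB1B 0.17, RAB21 -1.24, RAB22A -0.81, RAB23 -0.0938, RAB24 0.0312, RAB30 -0.54, RAB32 0.17, RAB33B -0.72, RAB34 0.18, RAB35 0.28, RAB36 0.26, RAB40C 0.26, RAB5C 0.21, RAB8A 0.35 and RAB9A -0.36, and the pair differences RAB1A/RAB1B -0.34, RAB11A/RAB11B -1.49, RAB2A/RAB2B -0.49, RAB3A/RAB3B 0.49, RAB3B/RAB3D -0.19, RAB5A/RAB5C -0.20, RAB6A/RAB6B -0.0178 and RAB8A/RAB8B 0.25. The correction on the third base of codons turned RAB11B 0.32, RAB12 0.15, RAB13 0.0305, RAB14 -0.17, RAB15 0.22, RAB1B 0.18, RAB24 0.00876, RAB27A 0.0152, RAB2B 0.0335, RAB32 0.14, RAB34 0.11, RAB35 0.34, RAB36 0.32, RAB3B 0.36, RAB40C 0.32, RAB5A -0.0123, RAB5C 0.17, RAB7A 0.14, RAB8A 0.41 and RAB9A -0.11, and the pair differences RAB11A/RAB11B -0.66, RAB2A/RAB2B -0.37 and RAB5A/RAB5C -0.18. The cause of these turns was not tested. The replicate block gave 30 RAB genes (RAB2B and RAB6A added), 8 pairs and 10389 genes. The numbers share no stated source and same-numbered deviations correlated at 0.118 over 2 pairs, so the fit without the block was reported. With edgeR RAB35 and RAB12 were not called and RAB14 and RAB10 were called higher. Without a filter RAB27B was called higher. It passed the 1 CPM that every listed gene reached only in siAARS1 replicate 2 (1.29 CPM), so that call carries no weight. Depth limits RAB27B and RAB39B most.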
